A study of Mus musculus with 4 samples.

Results

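The genes of the DNA replication machinery were followed in RNA-seq of mouse retinas at embryonic stage E13.5, in wildtype embryos and in embryos that lacked *Nrf1* in the retina. The group held 47 genes, picked by symbol for the protein they encode, with no threshold on measured values but with earlier results of these data known, among the 24062 genes counted. All 47 were expressed well enough to be tested, with between 1209 and 33716 reads per gene and library, so no member dropped out. There were 2 wildtype (WT) libraries and 2 *Nrf1*-mutant libraries, labelled Nrf1-CKO. The mutants were Nrf1 f/f;Six3-Cre: exon 4 of *Nrf1* was floxed on both alleles, and Cre was driven by *Six3* regulatory sequence, which is active in progenitor cells of the central retina from before the stage sampled, so cells outside the Cre domain kept the gene. Both genotypes were on a mixed C57BL/6 and 129 background, the labels name no treatment, and each library was made from total RNA of retinas pooled over multiple littermates. With pooled tissue and 2 libraries a genotype, the p-values below measure only the spread between such pools.

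A cell copies its genome once per division in a fixed order. The origin recognition complex (ORC) with *Cdc6* and *Cdt1* loads the MCM2-7 helicase onto DNA in G1, the kinase *Cdc7* with its partner *Dbf4* and the factors *Cdc45*, GINS and *Mcm10* switch the helicase on in S phase, and the polymerases, the clamp *Pcna*, its loader and the single-strand binding protein RPA then copy both strands. At E13.5 most of the retina consists of dividing progenitor cells, which carry this machinery, while retinal ganglion cells, the first neurons to form, have left the cell cycle. NRF1, the factor deleted here, binds a GC-rich palindromic DNA element close to the start of many genes, among them genes of mitochondrial function.

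Depth was close to equal, from 74577660 to 85933945 reads counted on genes. *Nrf1* itself had 103, 105, 103 and 100 counts per 1000000 reads on genes (CPM) in WT 1, WT 2, Nrf1-CKO 1 and Nrf1-CKO 2, which does not check the labels, because the deletion removes only 1 exon of the transcript. The retinal progenitor markers were at similar summed levels, from 5250 to 5665 CPM in WT and from 4998 to 5466 CPM in Nrf1-CKO libraries, sums in which *Sfrp2* has the largest share. Gene by gene these 13 markers had a median log2 fold change (Nrf1-CKO minus WT) of -0.10, with 9 below 0. In 6 of them the genotypes did not overlap, all lower in the mutant, an order seen in 31.6% of all tested genes. By the rule given below, which called 8.04% of all tested genes lower and 12.8% higher, 2 of the 13 fell (*Hes5* and *Sox9*). None rose by edgeR or DESeq2 or at an unadjusted p under 0.05. The retinal ganglion cell markers were lower, at 1073 to 1325 CPM against 3055 to 3494 CPM, with 11 of 12 called. Markers of tissues around the retina were higher in the mutant libraries. Lens markers were at 4106 to 9945 CPM against 172 to 488 CPM (13 of 13 called), pigment epithelium markers at 418 to 443 CPM against 166 to 229 CPM (6 of 8 tested) and macrophage markers at 238 to 287 CPM against 70.2 to 77.3 CPM (9 of 9 tested). Endothelial markers summed to 318 to 323 CPM against 287 to 288 CPM with 8 of 10 called higher and *Kdr* called lower, mesenchyme markers to 355 to 418 CPM against 189 to 270 CPM (6 of 10 called) and erythroid markers to 652 to 653 CPM against 501 to 587 CPM (3 of 6 tested). *Rpe65* had at most 4 reads, and *Hba-a1* and *Hbb-bt* were at 0. The part of these cell types in the differences below was not tested. In bulk RNA fewer cells of a type cannot be told apart from less RNA per cell.

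**Figure D1:**
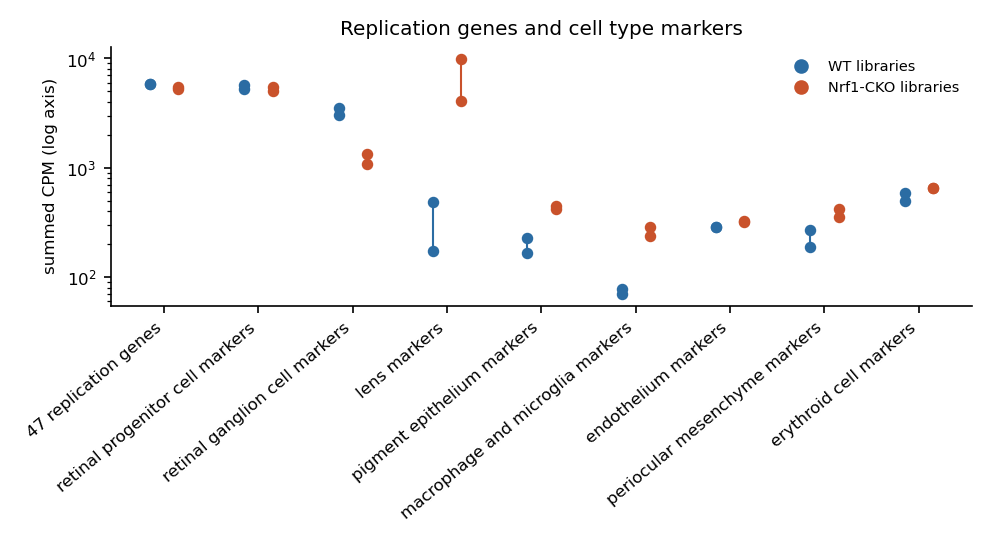
Summed CPM, on a log axis, of the 47 replication genes and of the marker genes of 8 cell types, with 1 point for each of the 2 WT (blue) and 2 Nrf1-CKO (orange) libraries. The replication genes lay at 5803 to 5863 CPM in WT and 5230 to 5508 CPM in Nrf1-CKO libraries, while the lens markers differed far more.

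As a group, the replication genes were slightly lower in *Nrf1*-mutant retinas, and no member rose. *Cdc7*, *Gmnn* and all 4 subunits of the DNA polymerase alpha-primase complex fell, while most MCM2-7, ORC and deoxynucleotide synthesis genes were at or near their WT level. Together the 47 genes took 0.598% and 0.577% of the reads in the WT libraries and 0.520% and 0.546% in the Nrf1-CKO libraries, without overlap between genotypes. The median log2 fold change (Nrf1-CKO minus WT) was -0.14 over the 47 members and 0.0007 over all 15762 tested genes, and 40 members were below 0. The markers of the progenitor cells that carry this machinery had a median of -0.10, and their part in the members' difference was not tested.

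Each gene was tested with edgeR's quasi-likelihood test with Benjamini-Hochberg adjustment over all tested genes. A gene was called at an adjusted p of at most 0.2 if it changed at least 1.4-fold. These limits follow the methods of the study. By this rule 2 of the 47 members fell, or 4.26%, and none rose, while 8.04% of all tested genes were called lower and 12.8% higher. By an adjusted p of at most 0.05 with no minimum fold, 10 members fell, or 21.3%, where 10.9% of all tested genes did. No member rose by this second rule either, against 11.9% of all tested genes, and at an unadjusted p under 0.05 edgeR had 17 members lower and 0 higher, while DESeq2 with adjustment had 12 lower and 0 higher. The share of members past the second rule in the lower direction was thus above that of all tested genes, and the share past 1.4-fold was below it. The median SE was 0.0818 over the members and 0.1152 over all tested genes, which lets smaller changes pass the second rule and separate the libraries. With marker genes of the surrounding tissues left out of the scaling, the same counts of 2 and 10 were obtained. That changes only the scaling factors and does not test the part of those tissues in the differences.

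In 29 members, or 61.7%, both Nrf1-CKO libraries lay below both WT libraries, which held for 31.6% of all tested genes. The reverse order was seen in 2 members (*Mcm2* and *Pole2*), or 4.26%, against 30.9%. In 42 of the 47 members (89.4%) the 95% interval of the difference stayed inside 1.4-fold in both directions, which depends on the size of the change as well as on its error, compared with 46.6% of all tested genes. The other 5, with the largest falls, were *Cdc7*, *Gmnn*, *Pola2*, *Prim1* and *Prim2*.

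The count of 10 rested on having both libraries of each genotype. It was 3 without WT 1 (*Cdc7*, *Gmnn* and *Pola2*), 2 without WT 2 (*Cdc7* and *Gmnn*), 7 without Nrf1-CKO 1 and 10 without Nrf1-CKO 2. The last 10 were not the same genes, since *Mcm6*, *Pola1* and *Rfc4* dropped out and *Pold1*, *Pold2* and *Rpa2* came in. *Gmnn* was at -0.48, just under the 1.4-fold limit, without WT 1 and without Nrf1-CKO 1, which left *Cdc7* as the single called member. It passed the second rule in all 13 alternatives. The median of the members was -0.09 without Nrf1-CKO 1 and -0.14 without Nrf1-CKO 2.

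**Figure D2:**
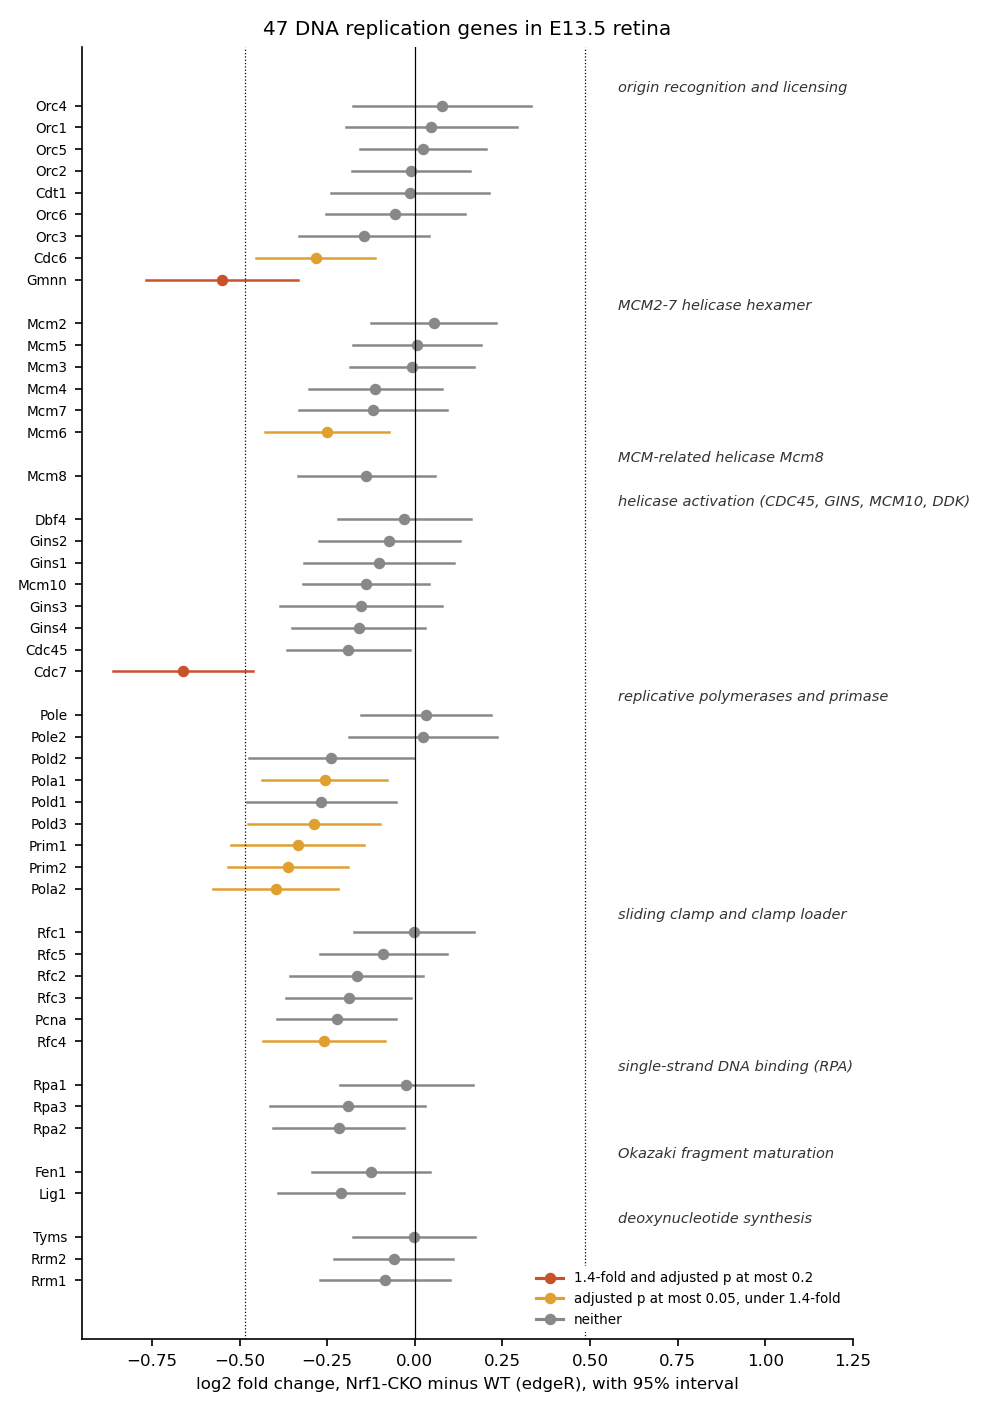
Log2 fold change (Nrf1-CKO minus WT) of each of the 47 replication genes with its 95% interval, grouped by role, with dotted lines at 1.4-fold. *Cdc7* (-0.66) and *Gmnn* (-0.55) lie furthest to the left, followed by *Pola2*, *Prim2* and *Prim1* of polymerase alpha-primase.

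Among the factors that license origins, geminin stood apart. *Gmnn*, which encodes geminin, the protein that holds CDT1 inactive after S phase has begun, lies on chromosome 13 at 24751845 to 24761923 (GRCm38, minus strand). It had 41.5 and 38.0 CPM in the WT libraries and 25.8 and 28.5 CPM in the Nrf1-CKO libraries. Both mutant libraries were well below both WT libraries, and the mean fell by 31.7% (log2 fold change -0.55, SE 0.10, adjusted p = 0.00355). Its target *Cdt1* had 96.5 and 109 CPM in WT and 94.1 and 110 CPM in Nrf1-CKO libraries, so the groups overlapped (log2 fold change -0.01, 95% interval -0.24 to 0.21). Per kb of exon, *Cdt1* therefore had 1.09 and 1.34 times the level of *Gmnn* in WT and 1.70 and 1.80 times in Nrf1-CKO libraries. This ratio, chosen after the values were seen, is unaffected by library scaling and did not overlap between genotypes. With 2 libraries against 2, its two-sided exact permutation p cannot go below 0.333, the value it had.

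*Cdc6*, the ATPase that joins ORC to load the helicase, had 65.2 and 64.3 CPM in WT and 52.3 and 54.1 CPM in Nrf1-CKO libraries. It fell by 17.9% (log2 fold change -0.28, SE 0.07, adjusted p = 0.0247). The 6 ORC genes showed no such shift. Their log2 fold changes ran from -0.15 (*Orc3*) to 0.08 (*Orc4*), with *Orc1* at 0.05, *Orc2* at -0.01, *Orc5* at 0.02 and *Orc6* at -0.06, and none passed either rule. *Orc3* was the only ORC gene whose genotypes did not overlap, with 112 and 102 CPM in WT and 98.7 and 94.7 CPM in Nrf1-CKO libraries (adjusted p = 0.246).

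The 6 genes of the MCM2-7 ring, the motor that unwinds DNA at the fork, were at 50.9 to 89.4 CPM per kb of exon in WT, and 1 of them fell. *Mcm6* (chromosome 1, 128331590 to 128359664, minus strand) had 359 and 348 CPM in WT and 290 and 305 CPM in Nrf1-CKO libraries. It fell by 15.9% (log2 fold change -0.25, SE 0.08, adjusted p = 0.0487), close to the threshold, and passed in 0 of the 4 fits with 1 library left out (-0.29 to -0.22). The other subunits did not pass. *Mcm4* was at -0.11 (-0.18 to -0.03 with 1 library left out) and *Mcm7* at -0.12 (-0.24 to -0.0068). *Mcm3* was at -0.01, *Mcm5* at 0.01 and *Mcm2* at 0.05. *Mcm2* had 352 and 356 CPM in WT and 356.2 and 378 CPM in Nrf1-CKO libraries, with an interval of the difference from -0.12 to 0.23. *Mcm8*, a related helicase known for its part in recombination repair, had 32.9 and 32.3 CPM in WT and 29.9 and 29.3 CPM in Nrf1-CKO libraries, and its change of -0.14 did not pass (adjusted p = 0.297).

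Of the genes that fire loaded origins, *Cdc7* had the largest change of all members. It encodes the catalytic subunit of the DDK kinase, which phosphorylates MCM proteins, and lies on chromosome 5 at 106964322 to 106984432 (plus strand). Its level was 63.6 and 62.4 CPM in WT and 42.6 and 37.1 CPM in Nrf1-CKO libraries. Both mutant libraries were far below WT, and the mean fell by 36.8% (log2 fold change -0.66, SE 0.09, adjusted p = 0.00095). *Cdc7* was called under each of the 13 alternative settings, with log2 fold changes from -0.76 to -0.57.

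*Dbf4* encodes the regulatory subunit of the same kinase. It had 101 and 90.5 CPM in WT and 91.0 and 96.1 CPM in Nrf1-CKO libraries, which overlapped (log2 fold change -0.03, 95% interval -0.22 to 0.16). Per kb of exon, *Cdc7* was at 1.32 and 1.44 times the level of *Dbf4* in WT but at 0.976 and 0.805 times in Nrf1-CKO libraries. The ratio was lower in both mutant libraries (exact permutation p = 0.333, the smallest possible). Its size depends on the annotated exon lengths, so it does not rank the pair, and it was also chosen after its values were seen.

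The other 6 helicase activators were all lower on average, and none passed. *Cdc45*, which forms the active helicase together with MCM2-7 and GINS, had 73.5 and 68.1 CPM in WT and 62.6 and 61.6 CPM in Nrf1-CKO libraries (log2 fold change -0.19, adjusted p = 0.119). *Mcm10*, which helps the activated helicase start to unwind, was at -0.14. The GINS subunits were at -0.10 (*Gins1*), -0.07 (*Gins2*), -0.15 (*Gins3*) and -0.16 (*Gins4*). The genotypes overlapped for *Gins1* and *Gins2* and not for the other pair.

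Among the replicative polymerases the difference between complexes was not tested, apart from 1 ratio given below, whose exact permutation p cannot go below 0.333. Polymerase alpha-primase, which lays down the RNA-DNA primers that start every new strand, fell in all 4 subunits by the second rule. Polymerase delta, the main enzyme of the lagging strand, had 3 members, of which *Pold3* fell and *Pold1* and *Pold2* did not pass. *Pold1* did pass with DESeq2 and with library size scaling, and both passed without Nrf1-CKO 2. Polymerase epsilon, the main enzyme of the leading strand, was close to its WT level in its 2 members.

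*Pola2*, the B subunit of polymerase alpha, lies on chromosome 19 at 5940542 to 5964202 (minus strand) and had 78.7 and 84.3 CPM in WT and 63.3 and 60.4 CPM in Nrf1-CKO libraries. It fell by 24.1% (log2 fold change -0.40, SE 0.08, adjusted p = 0.00677). *Prim2*, the large primase subunit, had 63.2 and 64.0 CPM in WT and 48.2 and 50.7 CPM in Nrf1-CKO libraries, a fall of 22.2% (-0.36, SE 0.08, adjusted p = 0.00875). In both genes each mutant library lay below each WT library. *Prim1*, the catalytic primase subunit, had 77.4 and 69.8 CPM in WT and 56.9 and 59.8 CPM in Nrf1-CKO libraries (-0.33, SE 0.08, adjusted p = 0.0196). *Pola1*, the catalytic subunit of the polymerase, had 127 and 126 CPM in WT and 110 and 101 CPM in Nrf1-CKO libraries (-0.26, SE 0.08, adjusted p = 0.0454). None of the 4 reached 1.4-fold. With all libraries kept, *Pola2*, *Prim1* and *Prim2* passed an adjusted p of 0.05 under each scaling tried, and *Pola1* under each except upper-quartile scaling. With 1 library left out, 1 of the 4 passed without WT 1 (*Pola2*), 0 without WT 2, 4 without Nrf1-CKO 1 and 3 without Nrf1-CKO 2 (all except *Pola1*).

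*Pold3*, an accessory subunit of polymerase delta, had 127.3 and 115 CPM in WT and 96.7 and 102 CPM in Nrf1-CKO libraries and fell by 18.1% (-0.29, SE 0.08, adjusted p = 0.0371). The catalytic subunit *Pold1* had 208 and 234 CPM in WT and 173 and 195 CPM in Nrf1-CKO libraries, without overlap but with a wider spread (-0.27, SE 0.09, adjusted p = 0.0742). *Pold2* had 99.9 and 114 CPM in WT and 83.0 and 98.1 CPM in Nrf1-CKO libraries (-0.24, SE 0.10, adjusted p = 0.138). In both polymerase delta genes the second library of each genotype was the higher one. *Pole* had 192 and 202 CPM in WT and 191.7 and 210 CPM in Nrf1-CKO libraries, and *Pole2* had 24.2 and 24.1 against 24.5 and 24.6 CPM. Their log2 fold changes were 0.03 (95% interval -0.16 to 0.22) and 0.02 (-0.19 to 0.23).

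**Figure D3:**
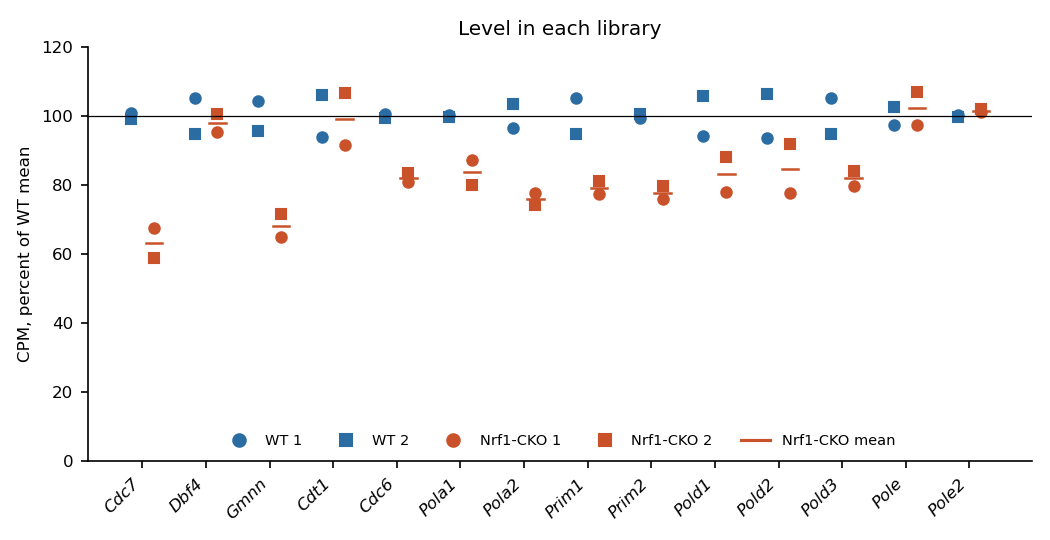
CPM of 14 licensing, kinase and polymerase genes in each of the 4 libraries, as a percent of the gene's WT mean, with the Nrf1-CKO mean as a line. *Cdc7*, *Gmnn* and the 4 polymerase alpha-primase genes sit below WT in both mutant libraries, while *Dbf4*, *Cdt1*, *Pole* and *Pole2* do not.

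*Rfc4*, a subunit of the clamp loader (chromosome 16, 23113943 to 23127737, minus strand), had 58.3 and 55.4 CPM in WT and 48.3 and 46.7 CPM in Nrf1-CKO libraries and fell by 16.5% (-0.26, SE 0.08, adjusted p = 0.0394). *Pcna*, the sliding clamp that tethers the polymerases, had 214 and 224 CPM in WT and 188 and 187 CPM in Nrf1-CKO libraries. The genotypes did not overlap, but the difference did not pass (-0.22, SE 0.08, adjusted p = 0.0644). The other loader subunits were at -0.003 (*Rfc1*), -0.17 (*Rfc2*), -0.19 (*Rfc3*) and -0.09 (*Rfc5*), none past the second rule.

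RPA coats the single strands that the helicase exposes. *Rpa2* had 80.3 and 78.4 CPM in WT and 64.6 and 71.9 CPM in Nrf1-CKO libraries (-0.22, SE 0.08, adjusted p = 0.0928), *Rpa3* was at -0.19 and *Rpa1*, the large subunit, at -0.02. *Lig1*, the ligase that joins Okazaki fragments, had 221 and 225 CPM in WT and 184 and 200.4 CPM in Nrf1-CKO libraries (-0.21, SE 0.08, adjusted p = 0.0913). *Fen1*, the nuclease that trims them, was at -0.13. In each of *Rpa2*, *Lig1* and *Fen1* both mutant libraries were below both WT libraries, and none passed.

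The enzymes that supply deoxynucleotides stayed close to WT. *Rrm1* and *Rrm2*, the large and small subunits of ribonucleotide reductase, were at -0.09 and -0.06, and *Tyms*, thymidylate synthase, at -0.003. *Rrm1* had the largest difference of the 3, with 385 and 358 CPM in WT and 341 and 359 CPM in Nrf1-CKO libraries, which overlapped (95% interval -0.27 to 0.10).

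Levels of different genes were compared per kb of exon, using the gene models of GENCODE release M21. The members spanned an 18.9-fold range in WT, from *Orc1* (4.83 CPM per kb) to *Pcna* (91.2 CPM per kb). The MCM2-7 genes had 1.76-fold between their highest and lowest member, against 5.14-fold within ORC and 6.06-fold within GINS. Summed over subunits, polymerase alpha-primase had 54.5 and 53.3 CPM per kb in WT and 43.0 and 42.8 CPM per kb in Nrf1-CKO libraries, or 20.5% less. Polymerase delta was 16.4% lower, at 123 and 133 against 100.3 and 114 CPM per kb. Both sums were without overlap between genotypes.

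Polymerase epsilon, at 25.6 and 26.4 against 25.7 and 27.4 CPM per kb, and ORC, at 78.9 and 72.9 against 74.7 and 72.8 CPM per kb, overlapped between genotypes. The MCM2-7 sum was 4.77% lower and that of ribonucleotide reductase 4.62% lower. GINS (8.94%), RPA (9.09%) and the clamp loader (9.58%) lay between these and the polymerases alpha and delta. The sums of MCM2-7, ribonucleotide reductase, GINS, RPA, the clamp loader and DDK also did not overlap between genotypes. Within each library, polymerase alpha-primase had 2.13 and 2.02 times the summed level of polymerase epsilon in WT. In Nrf1-CKO libraries it had 1.67 and 1.56 times (exact permutation p = 0.333, the smallest possible, for a ratio chosen after its values were seen). The size of this ratio depends on the subunits counted, which were 4 for alpha-primase and 2 for epsilon.

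**Figure D4:**
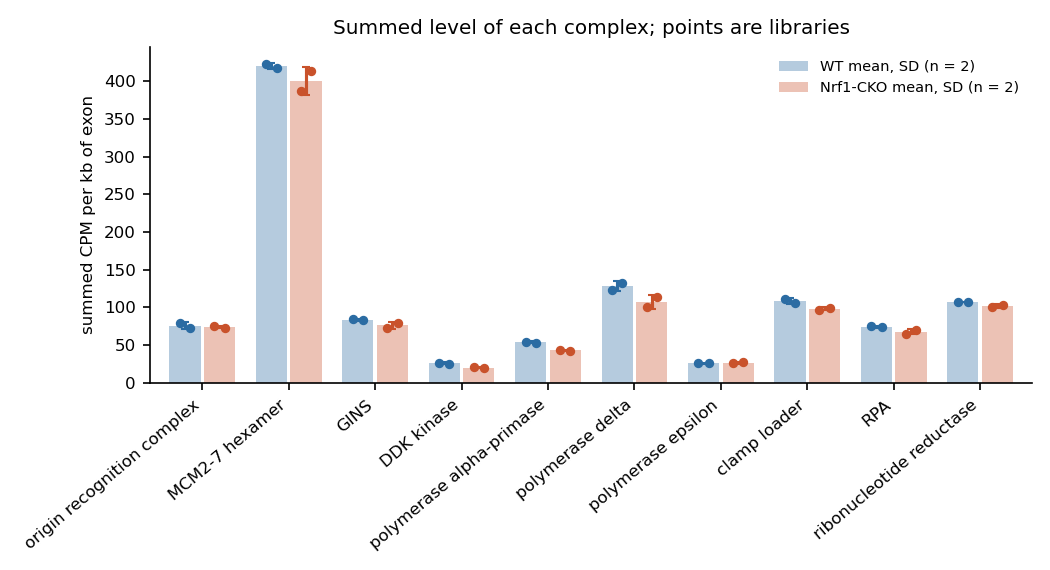
Summed CPM per kb of exon of the members in 10 replication complexes. Bars give the mean and SD of 2 libraries per genotype, and points the libraries. Polymerase alpha-primase (53.9 in WT and 42.9 in Nrf1-CKO) and DDK (26.0 and 20.2) had the largest relative differences, and polymerase epsilon (26.0 and 26.5) and ORC (75.9 and 73.8) the smallest.

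Some of these values can hold reads of a neighbour, because 16 of the 47 members share exon bases with another gene, 13 of them with a gene on the opposite strand, and the strand setting of the counting was not given in the sources used here. The shared part is largest in *Fen1* (78.8% of exon bases, with *Tmem258* among the partners) and *Gins2* (67.3%, with *Gse1*) and comes to 29.8% in *Orc2*. Of the 10 members that fell, only *Rfc4* shares exon bases (12.7%, with *Eif4a2*). *Pcna* and *Tyms* have annotated pseudogenes named after them, to which some of their reads may also align. Pseudogenes under other names were not searched. Alignments that were not unique, 54.6% to 58% of all entries per library, were not counted on genes.

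The promoters of the members were searched for DNA elements on both strands, from 250 bases before to 50 bases after the start, in the RefSeq promoter sequences of GRCm38.p6. Of the 47 members, 39 had a promoter in that table, all except *Mcm4*, *Prim2*, *Gins1*, *Pole*, *Gmnn*, *Gins2*, *Gins4* and *Rfc2*. The NRF1 core, GCGCATGC, was present in 6 of these 39 (15.4%), against 3.05% of the 27025 genes in the table and 5.45% of those that were tested here. They were *Cdc7*, *Cdt1*, *Lig1*, *Orc3*, *Pold2* and *Rpa2*. The sites are shown because NRF1 is the factor that was deleted, with the core in capitals and each read from 5′ to 3′ on the strand of its gene.

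Cdc7, chr5:106964337-106964366, plus strand: gggaagaatcGCGCATGCGCgcctggcggc
Cdt1, chr8:122567892-122567921, plus strand: ggcccggcatgGCGCATGCgtctcttggtg
Cdt1, chr8:122567920-122567949, plus strand: tgcctactagcGCGCATGCcccggagcgcg
Lig1, chr7:13277154-13277183, plus strand: ggacttgttggGCATGCGCacatccttgca
Orc3, chr4:34614895-34614924, minus strand: aagtgtggagtGCGCATGCacacggggccg
Pold2, chr11:5878382-5878411, minus strand: ccgcaaacaccGCATGCGCacaggaaaccc
Rpa2, chr4:132768175-132768204, plus strand: taaagatggccGCGCATGCttccattcctt

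The *Cdc7* site is the one in which the core occurs on both strands, as 2 overlapping matches that span 10 bases in all, and it begins 26 bases after one annotated start and 214 bases before the other. The shorter palindrome CGCATGCG, which overlaps the core, was found in *Cdc7*, *Cdt1* and *Pold2*. That is 7.69% of the 39, against 2.07% of all genes in the table and 3.87% of those tested here. Of the 6 genes with the core, *Cdc7* fell and the others did not pass the second rule. Their log2 fold changes were -0.66 (*Cdc7*), -0.24 (*Pold2*), -0.22 (*Rpa2*), -0.21 (*Lig1*), -0.15 (*Orc3*) and -0.01 (*Cdt1*). The median was -0.21 over these 6 and -0.12 over the 33 members without the core. Among all tested genes in the table, the 632 with the core had a median of -0.14, and 22.0% of them fell by the second rule, against a median of 0.006 and 10.2% of those without it.

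E2F factors drive many S phase genes, and the E2F element was searched as TTTCCCGC, TTTCGCGC, TTTGCCGC or TTTGGCGC. It was present in 16 of the 39 promoters (41.0%), against 2.6% of all genes in the table and 4.37% of those tested here. The members with it were *Orc1*, *Orc3*, *Cdc6*, *Cdt1*, *Mcm3*, *Mcm5*, *Mcm6*, *Mcm7*, *Mcm8*, *Gins3*, *Pola1*, *Pold1*, *Pold3*, *Pole2*, *Rfc3* and *Lig1*. Their median log2 fold change was -0.15, against -0.09 for the 23 without it, and 4 in either set fell by the second rule. Of all tested genes in the table, 10.8% with the element and 10.8% without it fell by that rule, with medians of -0.04 and 0.001. The sites of the 4 that fell are given here, again with the element in capitals. The longer run in *Mcm6* holds overlapping elements on both strands.

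Cdc6, chr11:98908002-98908031, plus strand: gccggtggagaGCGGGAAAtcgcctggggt
Mcm6, chr1:128359795-128359824, minus strand: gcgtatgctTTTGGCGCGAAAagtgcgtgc
Mcm6, chr1:128359734-128359763, minus strand: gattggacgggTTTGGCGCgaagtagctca
Pola1, chrX:93632275-93632304, minus strand: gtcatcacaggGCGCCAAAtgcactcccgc
Pold3, chr7:100121467-100121496, minus strand: gagcgaagctgTTTCCCGCcggcgggagct

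CCAAT, a 5-base box common in promoters, was found in 24 of the 39 (61.5%), against 41.1% of all genes in the table, and the median log2 fold change was -0.13 with it and -0.15 without it. A match is a description of these letters and does not show that a factor binds.

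The genes around the core machinery were described with 7 further lists, none of which shares a gene with the 47. Over their 116 genes, 5 were called lower, a smaller share than the 8.04% of all tested genes, and 13 fell by the second rule, near the 10.9% of all tested genes. Of the 24 other fork and firing factors, 1 was called lower and none higher, and 3 fell by the second rule. The called gene was *Dna2*, a nuclease and helicase that processes Okazaki fragments, with 52.1 and 51.3 CPM in WT and 36.8 and 32.5 CPM in Nrf1-CKO libraries (-0.58, SE 0.09, adjusted p = 0.00194). *Wdhd1*, which links polymerase alpha to the helicase, had 109 and 102 CPM in WT and 81.5 and 77.3 CPM in Nrf1-CKO libraries (-0.41, SE 0.08, adjusted p = 0.00565, an example chosen after its values were seen). The list's median was -0.12.

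Of the 12 other deoxynucleotide supply genes all were below 0 (median -0.12), 3 fell by the second rule and 1 was called. It was *Rrm2b*, the ribonucleotide reductase subunit that is used outside S phase and is known as a p53 target, with 14.8 and 14.5 CPM in WT and 10.6 and 8.97 CPM in Nrf1-CKO libraries (-0.58, SE 0.13, adjusted p = 0.0129). The 8 genes of chromatin assembly and maintenance methylation ran from -0.25 (*Dnmt1*, which fell with an adjusted p of 0.0485) to 0.02 (*Chaf1a*), with no call. The 20 checkpoint and recombination genes had a median of -0.13 and no call, and 2 of them fell by the second rule, with *Wee1* highest (0.11).

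The 14 E2F, DP and pocket protein regulators had a median of -0.12. *E2f6*, a repressor of the family, was the 1 called gene, with 73.1 and 67.8 CPM in WT and 50.9 and 47.7 CPM in Nrf1-CKO libraries (-0.52, SE 0.08, adjusted p = 0.00216). None was called higher, by edgeR or by DESeq2. By the second rule 2 fell (*E2f6* and *Tfdp2*), where 10.9% of all tested genes did. At an unadjusted p under 0.05 edgeR had 6 lower and 2 higher (*E2f3* and *E2f4*). The 20 mitotic genes, which encode cyclin B, Aurora kinases and kinetochore and spindle proteins, held no gene that was called or that passed the second rule, and at an unadjusted p under 0.05 edgeR had 0 lower and 1 higher, the same as DESeq2 at an adjusted p of 0.05. Their median was -0.01, from -0.20 (*Nuf2*) to 0.25 (*Ccnb1*), and neither end passed.

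Of the 18 cyclins, CDKs and inhibitors of S phase entry, 2 were called lower and 3 higher, where 8.04% and 12.8% of all tested genes were. By the second rule 2 fell and 5 rose, against 10.9% and 11.9% of all tested genes. *Ccnd1*, the main D-type cyclin of retinal progenitors, had 2541 and 2775 CPM in WT and 1390 and 1502 CPM in Nrf1-CKO libraries (-0.88, SE 0.08, adjusted p = 0.000229). Its kinase partner *Cdk6* had 31.0 and 39.3 CPM against 22.4 and 18.6 CPM (-0.78, SE 0.14, adjusted p = 0.00418). Both fell in each mutant library. *Ccnd2*, another D-type cyclin, rose from 126 and 123 CPM to 294 and 237 CPM (1.09, SE 0.11, adjusted p = 0.000238). *Ccnd3* (0.46, adjusted p = 0.00318) and *Ccne1* (0.34, adjusted p = 0.0356), a D-type and an E-type cyclin, rose by the second rule and stayed under 1.4-fold. The CDK inhibitors *Cdkn1a* (p21) and *Cdkn1c* (p57) rose as well. *Cdkn1a* had 2.82 and 1.47 CPM in WT and 15.8 and 19.0 CPM in Nrf1-CKO libraries (3.01, SE 0.27, adjusted p = 0.000178), and *Cdkn1c* had 151 and 161 CPM against 237 and 229 CPM (0.58, SE 0.08, adjusted p = 0.000997). *Gli1*, a target of hedgehog signalling, had 52.4 and 67.7 CPM in WT and 9.21 and 3.75 CPM in Nrf1-CKO libraries (-3.21, SE 0.33, adjusted p = 0.000295). It was at -4.00 without Nrf1-CKO 1 and at -2.47 with limma on the deposited log2 values, where *Cdkn1a* was at 1.69, and both stayed called.

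**Figure D5:**
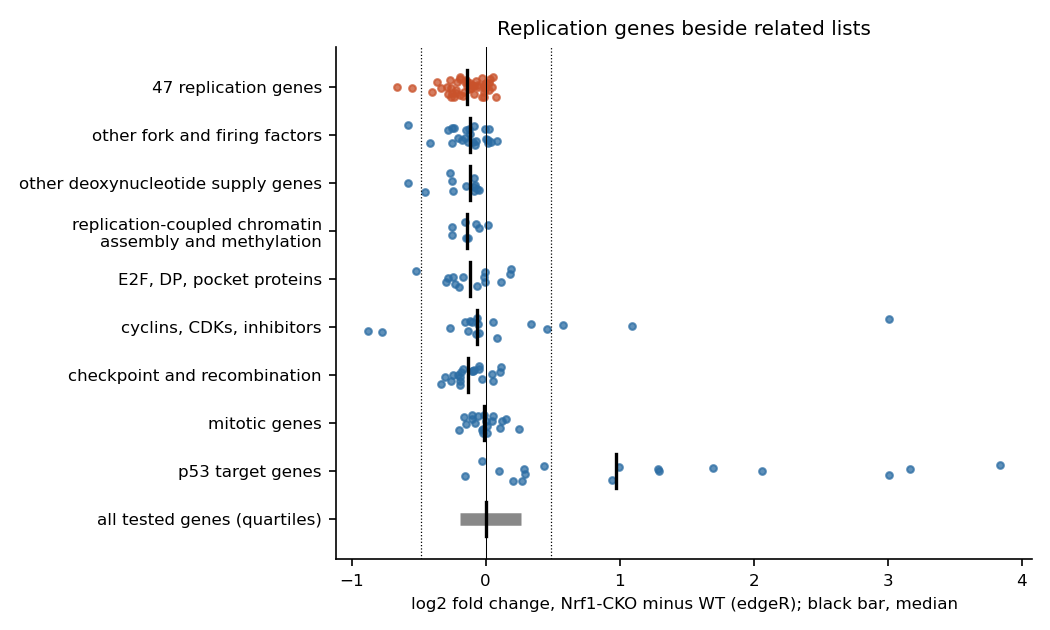
Log2 fold changes (Nrf1-CKO minus WT) of the 47 replication genes, of 7 related lists and of p53 target genes, with 1 point per gene, a black bar at the list's median, dotted lines at 1.4-fold and the quartiles of all tested genes in grey. The median of the replication genes was -0.14 and that of the mitotic genes -0.01, and *Fas*, with at most 1 read in a WT library, is not drawn.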

How the data were processed

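The deposited table of whole-number read counts per gene covers 2 WT and 2 Nrf1-CKO libraries, grouped by their GEO titles. According to the study's methods, the authors prepared cDNA from DNase-treated RNA, sequenced paired-end reads on an Illumina HiSeq instrument, aligned them to mm10 with TopHat2 (version 2.7.2 in the submitters' processing notes) and counted them with HTSeq, without normalization. The annotation release was not given in the sources used here. A second deposited table holds normalized expression values on a log2 scale, whose method was not given in the sources used here (the submitters' notes name DESeq and limma). It was used only as an alternative. The 5 HTSeq summary entries, 74.0% to 75.0% of all entries per library, stayed out of library sizes and tests. The study's own test, Cuffdiff, needs aligned reads, which were not used here.

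Genes were kept by edgeR's filterByExpr at a minimum count of 10, which left 15762. Counts were scaled by TMM and tested with glmQLFit and glmQLFTest (edgeR 4.0.16, R 4.3.3) over all libraries with genotype as the only term. CPM use the TMM-scaled library sizes, and each standard error is the fold change on the log2 scale divided by the root of the F value. The test was checked on simulated counts with known changes. Intervals cover counting error and the spread of 2 libraries per genotype, and PCR copies are not independent molecules. Replicates differed by more than counting error, so no library was a copy of another. Alternatives were DESeq2 1.42.0, other scalings, filters, tests and thresholds, the replicate number as a block, limma 3.58.1 on the log2 values and each library left out.

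The 47 members and the other lists were chosen with earlier results of these data known. All members were to be accounted for. Full values were planned for the called members and, in each role, the one with the largest absolute change, and other lists name their called genes or, with none, the highest and lowest gene. Ratios between members, summed complexes and the values of further members were added after the data had been seen. Gene positions and exon lengths are from GENCODE release M21 and promoters from RefSeq, both on GRCm38, which mm10 names. Values of 1 listed gene are not reported here.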

Additional observations from a re-analysis of the deposited data

How the results depend on the processing

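No member was higher past either rule under any alternative. Limits are 2 libraries per genotype, pooled embryos, an unstated strand setting and small differences, for which the choice of scaling matters: library size scaling put the median of all tested genes at -0.02 and upper-quartile scaling at 0.04, while the members' median stayed 0.14 below that of all genes under both. The causes of the shifts below were not tested.

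Members called lower (2) numbered 1 with limma on the deposited log2 values, 1 with glmTreat against 1.4-fold and 18 with no minimum fold, and ranged from 1 to 2 with 1 library left out. Members lower past adjusted p 0.05 (10) numbered 6 with upper-quartile scaling and ranged from 2 to 10 with 1 library left out, fewest without WT 2. Called genes of the other lists (5 lower, 12 higher) numbered 3 lower with limma, 2 lower with glmTreat, and 38 lower and 22 higher with no minimum fold, and ranged from 3 to 6 lower with 1 library left out, fewest without Nrf1-CKO 2. With 1 library left out, medians ranged from -0.15 to -0.086 for the members, -0.17 to -0.10 for deoxynucleotide supply, -0.18 to -0.079 for chromatin assembly, -0.096 to -0.013 for S phase entry, -0.046 to 0.029 for mitotic genes and 0.86 to 1.07 for p53 targets. The chromatin assembly median was -0.16 with library size scaling, -0.10 with upper-quartile scaling and -0.12 with limma. With upper-quartile scaling those of S phase entry and mitotic genes were -0.021 and 0.025, and with limma that of the p53 targets was 0.38.

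The replicate number as a block gave 12 members lower past adjusted p 0.05, the 10 above with *Pold1* and *Pold2* added, and the same counts of calls (2 members, and 5 lower and 12 higher in the other lists). The numbers are not known to pair the samples, since the differences between replicates of the same number had a correlation of -0.005 over genes in the 2 genotypes.

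Genes near 0 turned sign. With upper-quartile scaling the log2 fold changes were 0.029 for *Orc2*, 0.027 for *Cdt1*, 0.031 for *Mcm3*, 0.0091 for *Dbf4*, 0.037 for *Rfc1*, 0.015 for *Rpa1*, 0.036 for *Tyms* and 0.006 for *Nrf1*. With library size scaling they were -0.015 for *Mcm5* and -0.0048 for *Chaf1a*. *Rfc1* and *Tyms* were at 0.0021 and 0.0018 with DESeq2, 0.0031 and 0.0028 with at least 10 counts in every library, and 0.0018 and 0.0015 with limma. With 1 library left out, *Orc2* ranged from -0.026 to 0.016, *Orc4* from -0.071 to 0.21, *Orc6* from -0.14 to 0.051, *Cdt1* from -0.13 to 0.093, *Mcm3* from -0.043 to 0.037, *Mcm5* from -0.053 to 0.061, *Dbf4* from -0.10 to 0.054, *Pole* from -0.038 to 0.097, *Rfc1* from -0.031 to 0.037, *Rpa1* from -0.10 to 0.052, *Tyms* from -0.042 to 0.047 and *Chaf1a* from -0.041 to 0.087. *Gmnn*, *E2f6*, *Rrm2b*, *Perp* and *Fas* kept their direction but lost the call under limma, as did *E2f6* with upper-quartile scaling and without WT 1 (-0.46) or Nrf1-CKO 2 (-0.47) and *Rrm2b* without Nrf1-CKO 2 (-0.47).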

Other observations

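Genes that p53 is known to switch on were higher in the same libraries. Of 18 such genes, 10 were called higher and none lower, where 12.8% of all tested genes were called higher, and 13 rose at an adjusted p of at most 0.05 (edgeR's quasi-likelihood test). At an unadjusted p under 0.05, 15 were higher and 0 lower, and DESeq2 called 10 higher and 0 lower. *Eda2r*, a death receptor gene, had 2.60 and 2.35 CPM in WT and 20.3 and 24.3 CPM in Nrf1-CKO libraries (log2 fold change 3.17, SE 0.15, adjusted p = 7e-05). *Pmaip1*, which encodes the pro-apoptotic protein Noxa, had 0.343 and 0.229 against 3.25 and 5.05 CPM (3.84, SE 0.38). *Bbc3*, which encodes Puma, had 9.68 and 13.1 against 19.8 and 24.1 CPM (0.95, SE 0.16). In all 3 genes both mutant libraries were above both WT libraries. The other called genes were *Cdkn1a* (3.01), *Phlda3* (2.07), *Sesn2* (1.70), *Tnfrsf10b* (1.29), *Perp* (1.29), *Ccng1* (1.00) and *Fas*.

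*Fas* had 1 and 0 reads in WT and 21 and 20 reads in Nrf1-CKO libraries, at least 6.62-fold higher when WT is set to 3 counts per library. With *Fas* at that bound, the median log2 fold change of the 18 genes was 0.97. With limma on the deposited log2 values the median was 0.38, and *Fas* (0.35) and *Perp* (0.38) lost their calls. The log2 fold changes were also smaller there for *Pmaip1* (1.10), *Eda2r* (1.88), *Cdkn1a* (1.69), *Phlda3* (1.13) and *Tnfrsf10b* (0.57), which stayed called. The list did not move as one, since *Mdm2*, which encodes the main inhibitor of p53, was at 0.10 (adjusted p = 0.38), *Btg2* at -0.03 and *Sesn1* at -0.16, and *Rrm2b*, a known p53 target kept in the nucleotide list, fell.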
